A study of Mus musculus with 24 samples.

Results

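Collagens and the genes that fold, modify and cross-link them were followed in mouse quadriceps, a large thigh muscle, on a low fat and a high fat palm oil diet. The members were chosen by a rule on gene symbols, with earlier results of these data known. It took every probe set annotated to 1 symbol that is a collagen chain, Serpinh1 or Sparc. It also took the prolyl 4-hydroxylase alpha subunits (P4ha1 to P4ha3), the lysyl hydroxylases (Plod1 to Plod3) and the lysyl oxidases (Lox, Loxl1 to Loxl4). This gave 51 genes of the 14754 genes on the array that had 1 symbol, of which 40 were collagen chains. A gene was tested when its log2 intensity exceeded 4 on at least 6 of the 24 arrays. Of the 51 members 21 passed, among 5793 genes that passed in all, and 19 of these 21 exceeded 4 on all 24 arrays. The other two, Col15a1 and Col16a1, did so on 20 and 15 arrays.

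Male mice of the strain C57BL/6J (written C56BL/6J in the sample labels), with no transgene or deletion named, ate the low fat diet (10% of energy as fat) for a run-in of 3 weeks. They then stayed on it or moved to the high fat diet (45% of energy as fat) for 3 or 28 days. Each of the 4 groups, low fat and high fat at day 3 (age 12 weeks) and at day 28 (age 16 weeks), held 6 mice with 1 array each. Time on the diet and age therefore cannot be told apart. The labels state random assignment, yet mice of different diets and days carried separate ranges of numbers. If these ranges mark separate sets of animals, such sets cannot be told apart from diets or days either. The tissue is bulk muscle: more or fewer collagen-producing cells and more or less RNA per cell cannot be told apart in any value below.

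Collagens are the main structural proteins of the connective tissue around muscle fibres. Each molecule winds 3 chains into a helix: types I, III and V build the fibrils of the interstitial sheaths and tendon, type IV builds the basement membrane of fibres and capillaries, and type VI forms beaded filaments between them. In the endoplasmic reticulum prolyl and lysyl hydroxylases modify the chains and the chaperone Serpinh1 (HSP47) accompanies the folded procollagen, while outside the cell Sparc binds collagen and lysyl oxidases start the cross-links that harden a fibril. In adult muscle most of these genes are transcribed by fibroblasts and other stromal cells rather than by the fibres.

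To show the genes that the results turn on, the 150 bases upstream of the annotated start are given for 6 of them, 5′ to 3′ on the gene's strand, from RefSeq (GRCm38.p6). Promoters were matched for 17 of the 21 tested members, not for Col1a1, Col5a2, Lox and Loxl1, so the called members Col1a1 and Lox were not searched. Capitals mark every match in the printed window to CCAAT (the core of a common upstream element), TATAAA (the TATA box), or ACGTG (the core of E-box-like and hypoxia-response elements), on either strand, so CACGT is ACGTG on the other strand. The windows are Col1a2 at chr6:4505468-4505617 (plus strand), Col3a1 at chr1:45311388-45311537 (plus strand), Sparc at chr11:55420081-55420230 (minus strand), Serpinh1 at chr7:99353240-99353389 (minus strand), P4ha2 at chr11:54100774-54100923 (plus strand) and Plod3 at chr5:136986869-136987018 (plus strand). Col1a2 and Sparc are shown as members called higher at day 3, Serpinh1, P4ha2 and Plod3 as members called lower at day 28, and Col3a1 as a chain that was not called in any comparison.
Col1a2: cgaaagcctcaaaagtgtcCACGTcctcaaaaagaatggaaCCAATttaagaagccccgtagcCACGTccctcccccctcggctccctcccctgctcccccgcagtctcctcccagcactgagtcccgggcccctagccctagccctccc
Col3a1: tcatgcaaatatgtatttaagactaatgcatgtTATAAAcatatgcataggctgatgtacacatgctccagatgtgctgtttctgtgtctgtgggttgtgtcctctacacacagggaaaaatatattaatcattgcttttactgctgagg
Sparc: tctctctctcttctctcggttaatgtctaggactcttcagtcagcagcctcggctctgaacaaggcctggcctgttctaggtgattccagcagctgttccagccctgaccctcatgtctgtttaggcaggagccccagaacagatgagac
Serpinh1: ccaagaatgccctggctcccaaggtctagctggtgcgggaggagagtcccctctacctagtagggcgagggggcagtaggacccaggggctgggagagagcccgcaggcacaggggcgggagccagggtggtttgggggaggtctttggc
P4ha2: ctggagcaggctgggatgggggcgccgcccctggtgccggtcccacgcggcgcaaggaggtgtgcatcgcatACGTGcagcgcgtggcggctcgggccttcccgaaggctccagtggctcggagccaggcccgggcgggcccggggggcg
Plod3: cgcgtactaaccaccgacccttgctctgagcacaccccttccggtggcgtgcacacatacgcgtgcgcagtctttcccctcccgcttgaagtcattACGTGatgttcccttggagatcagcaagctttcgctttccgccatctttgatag

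Over the 250 bases upstream, ACGTG was found in 6 of the 17 matched members (Col1a2, Col5a1, P4ha1, P4ha2, Plod3 and Serpinh1) and in 16.6% of all 27025 promoters. CCAAT was found in 6 members and in 34.5% of promoters, TATAAA in 2 members (Col3a1 and Plod1) and 13%, and GGGCGG, the core of GC boxes, in 10 members and 32.9%. GAANNTTC, a palindrome of heat shock elements, was found in no matched member and in 6.78% of promoters. Both strands were searched, and no match in the printed windows overlaps another. A match is a run of letters and not a known site. Among the called members with a matched promoter, ACGTG was found in Col1a2, which was higher at day 3, and in P4ha2, Plod3 and Serpinh1, which were lower at day 28. It was not found in Sparc and Col6a2, which were higher at day 3. Col5a1 and P4ha1 hold it and were not called in any comparison. A link between these letters and diet was not tested.

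After 3 days, type I collagen, type VI chain Col6a2 and Sparc were higher on high fat. After 28 days this difference was no longer called, and the members called by diet were the modifying and cross-linking enzymes Lox, Plod3 and P4ha2 and the chaperone Serpinh1, all lower on high fat. The effect of diet fell between the days for Serpinh1 and Sparc by a direct test. These calls ended in 12 and 17 of the 24 fits that left out an array. Col1a1, Col1a2, Col6a2, Lox, Plod3 and P4ha2 did not pass the direct test, so a change between the days is not shown for them. Among the 13 tested chains, all 13 had a positive difference (high fat minus low fat) at day 3 and 9 a negative one at day 28. Among the 6 enzymes, 5 had a negative difference at day 3 and all 6 at day 28. These signs are descriptions, since most of the differences did not pass the test.

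The arrays were alike in quality: any 2 correlated at 0.978 to 0.995 over all probe sets, array medians lay between 6.56 and 6.91 on the linear scale, and the log2 ratio of 3′ to 5′ beta-actin probes ran from -0.19 to 0.37. For low fat day 3 replicate 1, the labels name no removal of genomic DNA. Low fat day 28 replicate 6 had the lowest value of its group for 13 of 13 tested chains, and low fat day 3 replicate 2 and high fat day 3 replicate 2 for 9 of 13 each. Results that rest on one of these arrays are given with and without it. Centring each array on its median moved the share of higher calls among all called genes at day 3 from 53.8% to 42.6%, and quantile normalization moved it at day 28 from 42.7% to 52.8%. For the difference between the days the share was 48.8%, 59.2% with quantile normalization and 67.5% with centring, and for day 28 against day 3 on high fat 53.1%, and 69.2% with centring.

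The first comparison asks what the high fat diet does to these genes within 3 days. Col1a1 (Entrez gene 12842), the major chain of type I collagen, had log2 intensities from 7.78 (median 9.12) to 10.01 in the 6 low fat mice and from 8.84 (median 10.23) to 11.12 in the 6 high fat mice. Of the high fat mice 5 lay above every low fat mouse, and replicate 5 lay inside the low fat range. The difference was 1.22 ± 0.37 (SE of the limma fit; means 8.98 ± 0.75 and 10.20 ± 0.79, SD, n = 6 each), a 2.33-fold higher intensity, with a limma adjusted p of 0.0287. Col1a2 (12843), the partner chain in the same helix, ran from 9.02 (median 10.02) to 10.87 on low fat and from 10.01 (median 10.91) to 11.24 on high fat. High fat replicate 5 was again the lowest of its group, and low fat replicate 4 lay above 3 of the high fat mice. The difference was 0.89 ± 0.25 (SE), 1.85-fold, with a limma adjusted p of 0.0204.

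Sparc (20692), the collagen-binding matricellular protein, ran from 10.22 (median 10.47) to 11.03 on low fat and from 10.91 (median 11.07) to 11.37 on high fat. Only low fat replicate 4 reached into the high fat range. The difference was 0.57 ± 0.14 (SE), 1.49-fold, and its limma adjusted p of 0.00805 was the smallest of any member at day 3. Col6a2 (12834), a chain of the beaded filaments, ran from 5.98 (median 6.81) to 7.17 on low fat and from 6.98 (median 7.36) to 7.50 on high fat, with 2 high fat mice inside the low fat range. The difference was 0.58 ± 0.19 (SE), with a limma adjusted p of 0.0407.

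Thus 4 of the 21 tested members were called higher and none lower at day 3, where 7.99% of all 5793 tested genes were called higher, 6.87% lower and 14.9% in either direction. At an unadjusted limma p under 0.05 there were 13 members, and at least 1684 of all 5793 tested genes. The median difference over the 21 members was 0.33, against -0.0051 over all tested genes. By class, 2 of 6 fibrillar chains, 1 of 3 type VI chains and none of the 2 type IV chains were called, with class medians of 0.61, 0.37 and 0.30. Col3a1 (12825), the chain of type III collagen that co-assembles with type I, was not called: it ran from 10.41 (median 11.15) to 12.02 on low fat and from 10.97 (median 11.40) to 11.54 on high fat. Its difference was 0.13 ± 0.21 (SE; 95% interval -0.31 to 0.58; limma adjusted p = 0.715).

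The remaining chains lay between these. Col5a1 differed by 0.55 (limma adjusted p = 0.0621), Col5a3 by 0.67 (0.0884) and Col5a2 by 0.32 (0.258), all of type V, which nucleates fibrils. Col6a1 differed by 0.37 (0.0637) and Col6a3 by 0.27 (0.388), and the basement membrane chains Col4a1 and Col4a2 by 0.26 and 0.33 (0.286 and 0.151). Col16a1, a fibril-associated chain, differed by 0.68 (0.0603) and Col15a1, a chain of the basement membrane zone, by 0.58 (0.178). None of these passed the test.

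Neither Serpinh1 nor any of the 6 tested enzymes was called at day 3. Serpinh1 (12406), the collagen chaperone, ran from 8.27 (median 8.59) to 8.90 on low fat and from 8.80 (median 8.97) to 9.01 on high fat, a difference of 0.37 ± 0.14 (SE) with a limma adjusted p of 0.0724. The prolyl hydroxylase subunits P4ha1 and P4ha2, which make the hydroxyproline that stabilises the helix, had differences of -0.49 and -0.30 (limma adjusted p = 0.0782 and 0.0932), and the lysyl hydroxylase Plod3 had -0.23 (0.147). For P4ha2 and Plod3 every high fat mouse lay below every low fat mouse. That is 2 of the 21 tested members, against 2.59% of all tested genes. No tested member had all high fat mice above all low fat mice, against 3.5%. Lox differed by -0.43 ± 0.22 (SE; 0.197), Loxl1, its relative in elastic fibre assembly, by -0.03 (0.905), and Plod1 by 0.05 (0.859).

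**Figure D1:**
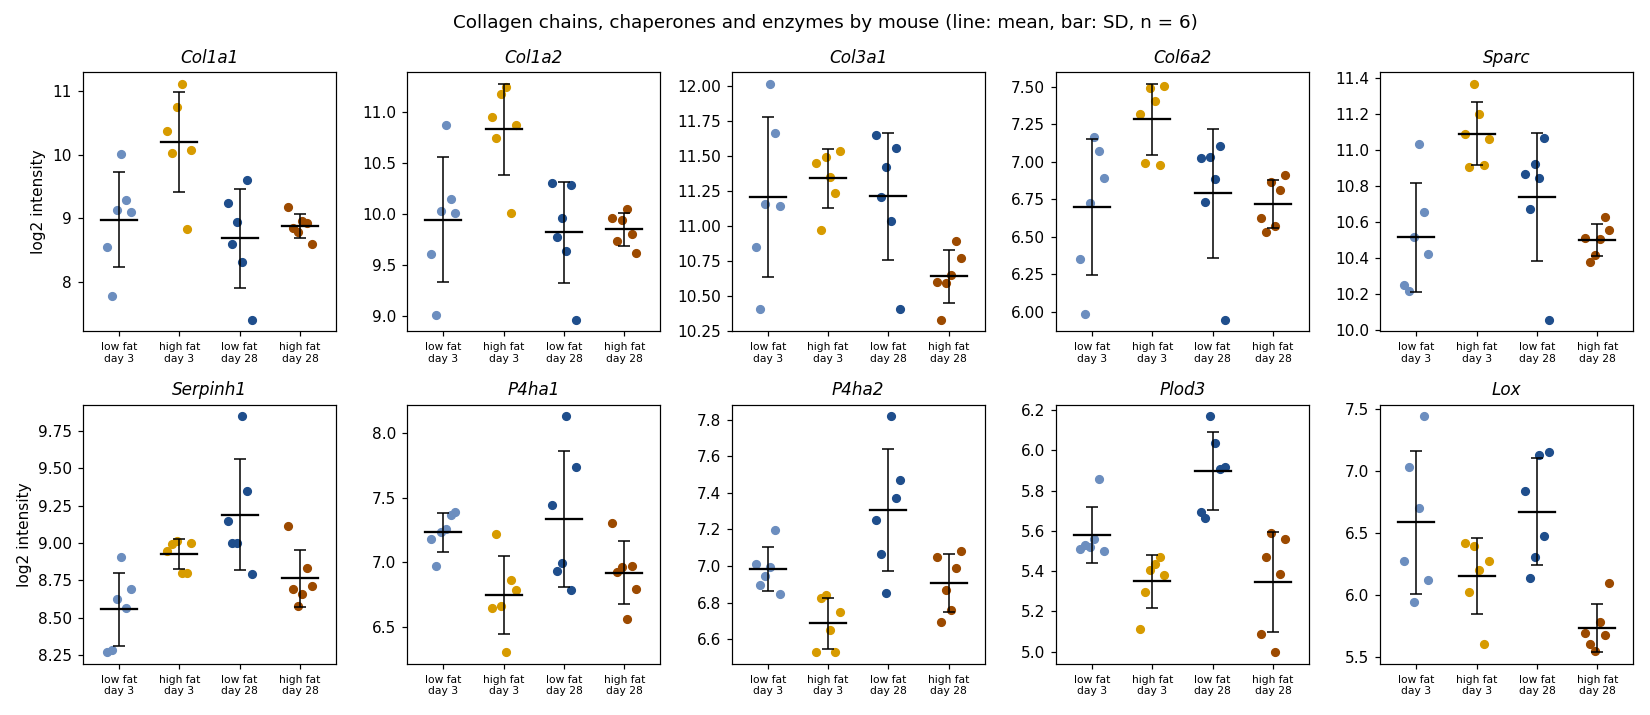
Log2 intensity (vertical axis, a separate range in each panel) of 10 members in every mouse, by diet and day. Points are mice, the line is the mean and the bar the SD over 6 mice. Col1a1, Col1a2 and Sparc are highest in the high fat day 3 group, while Plod3 and Lox at day 28 lie lower in every high fat mouse than in any low fat mouse.

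The day 3 calls did not all rest on the whole set of arrays. Without low fat replicate 2, the call of Col1a1 (0.98, limma adjusted p = 0.0737), Col1a2 (0.70, 0.0546) and Col6a2 (0.44, 0.104) ended, and 1 member, Sparc, remained called (0.51, 0.0235). Col1a1 also lost its call without low fat replicate 1 (0.0549) or without high fat replicate 1 (0.0532), replicate 3 (0.0595) or replicate 4 (0.0676), and Col6a2 without any of these (0.0860, 0.0691, 0.0775 and 0.0712), without low fat replicate 3 (0.0565) or without high fat replicate 6 (0.0821). Without low fat replicate 1, the array for which removal of genomic DNA is not named, Col1a1 differed by 1.13 and 2 members were called, as they were without high fat replicate 1, 3 or 4. The count was 8 without low fat replicate 4 or without replicate 5, and 7 without low fat day 28 replicate 4. Of all tested genes, 399 were called higher and 349 lower without low fat replicate 4, and 353 and 325 without replicate 5. Without low fat day 28 replicate 4 these were 473 and 403. In a fit of only the 12 day 3 arrays, Col1a1 (0.0693), Col1a2 (0.0617) and Col6a2 (0.0717) were not called, and P4ha1 and P4ha2 were called lower (4.12% of all tested genes in that fit) and Serpinh1 and Sparc higher (4.95%). Sparc was called in each of these fits.

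Of the members, 30 were too dim to test, with mean log2 intensities of 1.17 (Col25a1) to 3.54 (Loxl3), where values depend on the background correction. They comprise Col2a1, Col11a1, Col11a2 and Col24a1 of the fibrillar class, and Col4a3 to Col4a6 of the basement membrane class. They further comprise Col9a1, Col9a2, Col9a3, Col12a1, Col14a1, Col19a1, Col20a1 and Col22a1 of the fibril-associated class, Col7a1, Col8a1, Col8a2 and Col10a1, the transmembrane chains Col13a1, Col17a1, Col23a1 and Col25a1, and Col6a4, Col18a1, Col26a1, Plod2, Loxl3 and Loxl4. When all 14754 genes were fitted without the filter, 4 of these were called higher at day 3, where 3.1% of all 14754 genes were called higher (limma adjusted p over all 14754 genes). Col6a2 was not called in that fit (0.0690). They were Col11a1, of the type XI collagen that starts thin fibrils (1.63, adjusted p = 0.000941), Col11a2 of the same type (0.87, 0.000771), and the network-forming chains Col8a1 (0.81, 0.00270) and Col8a2 (0.75, 0.0377). Col11a1 lay between 1.89 and 2.40 (median 2.32) on low fat and between 2.35 and 4.78 (median 4.09) on high fat, with values below the filter level of 4 in all low fat mice. Col8a1 lay between 2.37 and 3.03 on low fat and between 3.15 and 3.86 on high fat, with no overlap. None of these 4 was called at day 28, where Col8a2 differed by 0.64 (limma adjusted p = 0.0838) and Col11a1 by 0.53 (0.351). Markers of cartilage and bone, in which types II and XI are abundant, were dim: the 5 on the array (none tested) summed to between 15.5 and 22.5 on the linear scale in any mouse. The part of such tissue in the differences above was not tested.

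The second comparison asks the same after 28 days. Lox (16948), the enzyme that starts collagen and elastin cross-links, ran from 6.14 (median 6.66) to 7.15 on low fat and from 5.55 (median 5.69) to 6.10 on high fat. No high fat mouse reached the lowest low fat mouse. The difference was -0.94 ± 0.22 (SE; means 6.67 ± 0.43 and 5.73 ± 0.19, SD, n = 6 each), with a limma adjusted p of 0.00584. Plod3 (26433), a lysyl hydroxylase that also attaches sugars to collagen, ran from 5.66 (median 5.91) to 6.17 on low fat and from 4.997 (median 5.43) to 5.59 on high fat, again without overlap. It differed between the diets by -0.55 (SE 0.11; limma adjusted p = 0.00107). The call of Lox held in the 9 alternative fits and that of Plod3 in 8, since Plod3 was too dim for the stricter filter, and both held without each array in turn.

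P4ha2 (18452) ran from 6.85 (median 7.31) to 7.82 on low fat and from 6.69 (median 6.93) to 7.08 on high fat, with overlap, and differed by -0.40 ± 0.12 (SE; limma adjusted p = 0.0256). Its call ended without low fat replicate 4 (-0.30, 0.0677), 5 (0.0526) or 6 (0.0639) or without high fat replicate 2 (0.0651) or 4 (0.0615). Serpinh1 ran from 8.79 (median 9.07) to 9.85 on low fat and from 8.58 (median 8.70) to 9.12 on high fat. It differed by -0.43 ± 0.14 (SE; limma adjusted p = 0.0437), and 13 of the 24 fits that left out an array missed the threshold. In these the adjusted p lay above 0.05 by little without day 3 arrays (low fat replicate 3, high fat replicates 1, 2, 3 and 6; 0.05002 to 0.0515), and further above it without low fat day 28 replicates 1, 4 or 5 (0.0627, 0.109 and 0.0950) or without high fat day 28 replicates 2 to 6 (0.0576 to 0.0939). The limma adjusted p of Serpinh1 was 0.0567 with the replicate number as a block, 0.0564 with centring, 0.0707 without the filter and 0.0965 in a fit of only the 12 day 28 arrays.

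In all, 4 of 21 members were called lower at day 28 and none higher. Of all tested genes 7.18% were called lower, 5.35% higher and 12.5% in either direction. The median difference over the members was -0.29, against 0.0097 over all tested genes. The 2 members without overlap, Lox and Plod3, stand against 4.56% of all genes lower without overlap. No collagen chain was called. Col1a1 had means of 8.69 ± 0.78 in low fat and 8.88 ± 0.19 in high fat mice (SD, n = 6 each), a difference of 0.20 (95% interval -0.57 to 0.97; limma adjusted p = 0.796). For Col1a2 the difference was 0.03 (-0.49 to 0.55; 0.956) and for Sparc -0.24 (0.314). Col3a1 ran from 10.41 (median 11.31) to 11.65 on low fat and from 10.33 (median 10.63) to 10.89 on high fat, a difference of -0.57 ± 0.21 (SE; 0.0858), and Col6a3 differed by -0.51 (0.102).

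One array bears on these chains. Low fat day 28 replicate 6 had the lowest value of its group for every tested chain, among them Col1a1 at 7.41 and Col3a1 at 10.41. Without it 6 members were called lower at day 28, where 5.78% of all tested genes were: Col3a1 (-0.73, limma adjusted p = 0.0206), Col6a3 (-0.65, 0.0298) and Sparc (-0.37, 0.0437) joined Lox (-0.84, 0.0194), Plod3 (-0.55, 0.00308) and Serpinh1 (-0.50, 0.0204), and P4ha2 left. The count was 2 (Lox and Plod3) without low fat replicate 4 or 5 or without high fat replicate 2 or 4. In those fits 249 to 263 of all tested genes were called higher and 349 to 383 lower. Col1a1 and Col1a2 were called at day 28 in none of the 24 fits that left out an array.

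**Figure D2:**
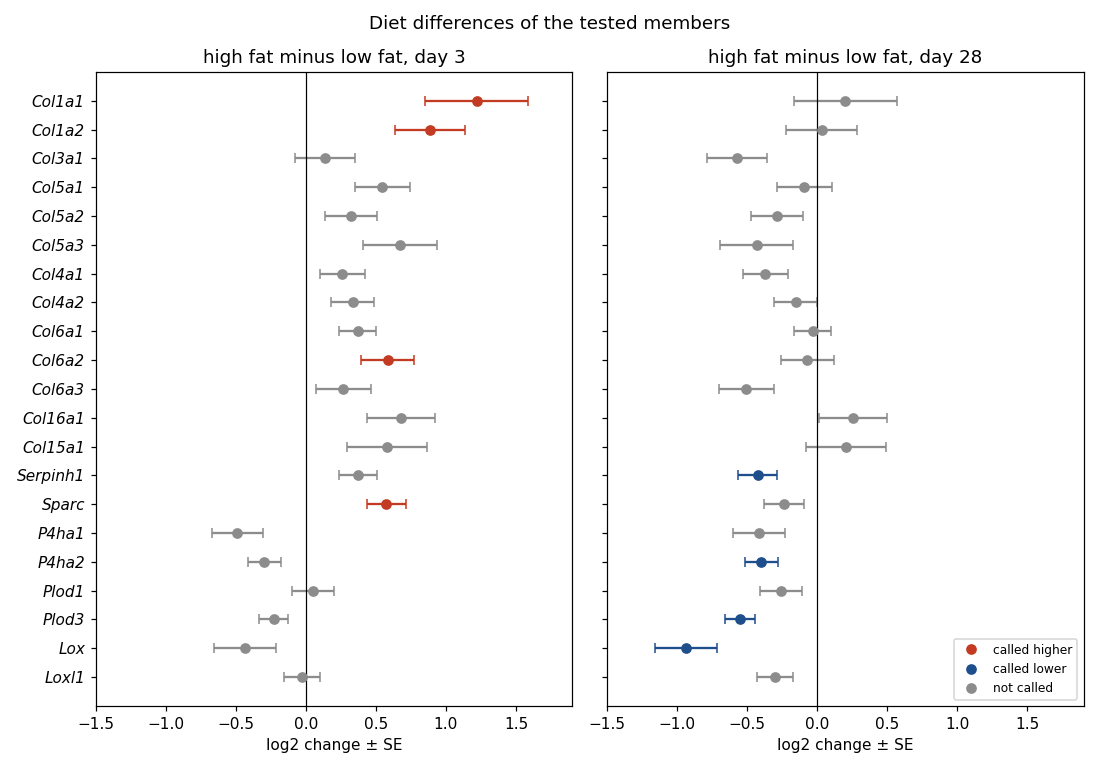
Difference of high fat minus low fat (log2, horizontal axis) with its SE for the 21 tested members at day 3 and at day 28, in order of class from fibrillar chains to lysyl oxidases. At day 3 the chains lie right of 0 and 4 members are called higher; at day 28 the 4 members called lower are Serpinh1, P4ha2, Plod3 and Lox.

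The third comparison asks whether the effect of diet itself differed between the days, with the same 24 arrays as the 2 above. It differed for Serpinh1 and Sparc, both lower at day 28 than at day 3, by -0.80 ± 0.20 and -0.81 ± 0.20 (SE), each with a limma adjusted p of 0.0411. That is 2 of 21 members, against 0.708% of all tested genes called lower and 1.38% in either direction. The median over the members was -0.61, against 6e-04 over all tested genes, and 20 of 21 members were negative. At an unadjusted limma p under 0.05 there were 13 members, and at least 1003 of all 5793 tested genes. Col1a1 (-1.02; limma adjusted p = 0.292), Col1a2 (-0.85, 0.201) and Col3a1 (-0.71, 0.215) did not pass, so the type I difference called at day 3 and not at day 28 is not shown to differ between the days. The same holds for Lox (-0.51, 0.389), Plod3 (-0.32, 0.246) and P4ha2 (-0.10, 0.787).

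Both interaction calls were near the threshold. Leaving out an array ended that of Serpinh1 in 12 of 24 fits and that of Sparc in 17 of 24, with adjusted p-values up to 0.0801 and 0.0820, both without low fat day 28 replicate 5. Low fat day 3 replicates 1, 2, 3 and 6, high fat day 3 replicates 1 and 6, low fat day 28 replicate 5 and high fat day 28 replicates 2, 3, 4 and 6 ended both calls (for low fat day 3 replicate 1, 0.0671 each). High fat day 3 replicate 2 ended that of Serpinh1 alone (0.0528), and high fat day 3 replicates 3 and 4 (0.0509 and 0.0503), low fat day 28 replicates 2, 3 and 4 (0.0606, 0.0568 and 0.0581) and high fat day 28 replicate 1 (0.0720) that of Sparc alone. The estimates moved little, from -0.88 to -0.67 for Serpinh1 and from -0.95 to -0.75 for Sparc. Quantile normalization ended the call of Sparc (-0.77, 0.0582), and fitting without the filter ended both (0.0775 for Serpinh1 and 0.0786 for Sparc).

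Day 28 was also compared with day 3 within each diet, which uses the same arrays again. On low fat, Serpinh1 was called higher at day 28 (0.63 ± 0.14, SE; limma adjusted p = 0.0485), 1 of 21 members against 0.345% of all genes called in either direction and 0.173% higher. Its mice ran from 8.27 to 8.90 at day 3 and from 8.79 to 9.85 at day 28, with overlap. The call ended in 17 of the 24 fits without an array (limma adjusted p up to 0.131, without low fat day 28 replicate 5) and with the replicate block (0.0507). It held without high fat day 3 replicate 4 or 5, low fat day 28 replicate 1, 3 or 6, or high fat day 28 replicate 1 or 6. On high fat no member was called by limma, where 0.552% of all genes were. At an unadjusted limma p under 0.05 there were 10 members, and at least 817 of all 5793 tested genes. The differences were -1.32 for Col1a1 (limma adjusted p = 0.104), -0.98 for Col1a2 (0.0747), -0.70 for Col3a1 (0.141) and -0.59 for Sparc (0.0599). For Sparc, Col3a1, Col5a2 and Col6a2 every day 28 mouse lay below every day 3 mouse, 4 of 21 members against 0.967% of all genes. The count depended on the fit: 5 members were called lower when only the 12 high fat arrays were fitted (Col1a2, Col3a1, Col5a2, Col6a2 and Sparc), where 0.417% of all tested genes were. With array weights Col1a1 joined them, to make 6, where 1.04% of all tested genes were called lower. The replicate block gave 1, Sparc (0.0446).

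Since Col1a1 and Col3a1 are read on the same array, their difference in log2 intensity can be set side by side between diets. The pairs were chosen after the levels had been seen, so the values are a description with no test, and the difference itself carries no meaning, as each probe set binds in its own way. Col1a1 minus Col3a1 at day 3 had means of -2.23 ± 0.25 in low fat and -1.14 ± 0.74 in high fat mice (SD, n = 6 each). In 5 of 6 high fat mice it lay above every low fat mouse, and in high fat replicate 5 it was -2.40. At day 28 it was -2.53 ± 0.35 and -1.76 ± 0.29 (SD, n = 6 each), with 4 of 6 high fat mice above every low fat mouse. Col1a2 minus Col3a1 was higher on high fat by 0.75 at day 3 and by 0.60 at day 28, and at day 28 every high fat mouse (-1.15 to -0.60) lay above every low fat mouse (-1.46 to -1.28). The 2 chains of type I differed from each other by less: Col1a1 minus Col1a2 was higher on high fat by 0.33 and 0.17. At day 3 the higher difference went with higher Col1a1 and Col1a2, and at day 28 with a lower mean of Col3a1 beside type I chains whose means were close.

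**Figure D3:**
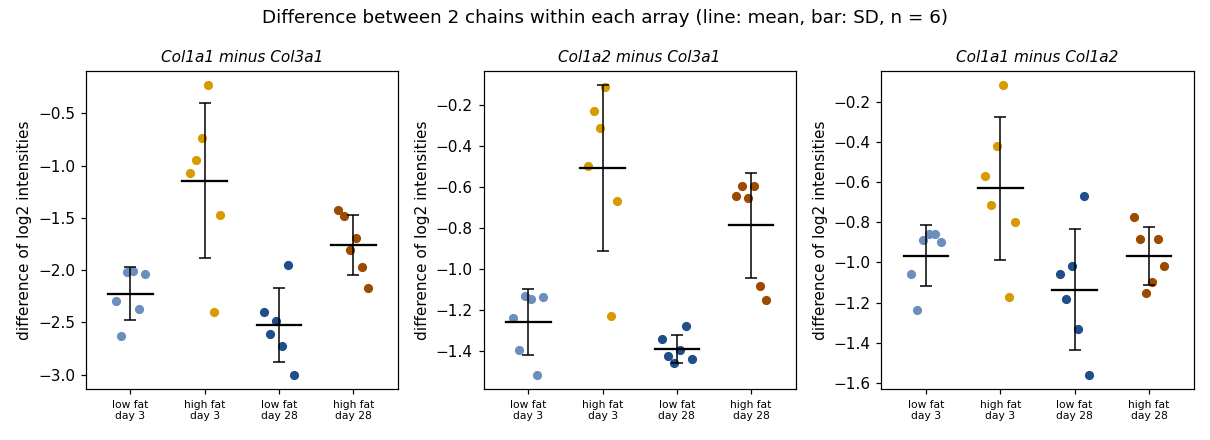
Difference between the log2 intensities of 2 chains on the same array (vertical axis) for every mouse, by diet and day, with the mean (line) and SD (bar) of 6 mice. For Col1a2 minus Col3a1 at day 28 the 6 high fat mice lie above all 6 low fat mice.

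Mice of one group also differed from each other, and the chains did so together. Deviations from the group mean were correlated over the 24 arrays for 10 pairs, with permutation p-values adjusted over the 10. The partner chains of one helix were close: Col1a1 with Col1a2 gave r = 0.969 (rho 0.949; adjusted permutation p = 3.33e-05 for each) and Col6a1 with Col6a2 r = 0.929 (rho 0.851). Col4a1 with Col4a2 gave r = 0.911 (rho 0.855) and Col5a1 with Col5a2 r = 0.863 (rho 0.768). Without the 2 arrays farthest from the median of the first gene, r was 0.953, 0.858, 0.841 and 0.779. Col1a2 varied with Sparc (r = 0.840, rho 0.794), Col3a1 (0.832, rho 0.777) and Col6a1 (0.802, rho 0.762), with adjusted permutation p-values of 6e-05, 0.00015 and 0.000214. Without the 2 farthest arrays these were 0.745, 0.706 and 0.649. In the high fat day 28 group, where Col1a2 had an SD of 0.16, the same 3 pairs gave r of -0.14, -0.08 and -0.15.

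The other 3 pairs had lower values. Col1a2 with Serpinh1 gave r = 0.456 (rho 0.414; adjusted permutation p = 0.0674 for r, and 0.0456 with quantile normalization), and Col1a2 with Col4a1 r = 0.348 (0.215) and rho 0.463 (0.0464). Col1a2 with Lox gave r = -0.028 and rho 0.015 (adjusted permutation p = 0.922 and 0.954), and within the groups r was -0.059 (low fat day 3), 0.892 (high fat day 3), -0.499 (low fat day 28) and -0.498 (high fat day 28). As a description over all pairs of tested members, the median r was 0.649 among 78 pairs of chains and 0.818 among the 36 pairs of fibrillar and type VI chains. It was 0.103 among the 78 pairs of a chain with an enzyme, whose values ran from -0.596 to 0.707. The arrays share their processing and each array's overall level, which can raise any r.

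**Figure D4:**
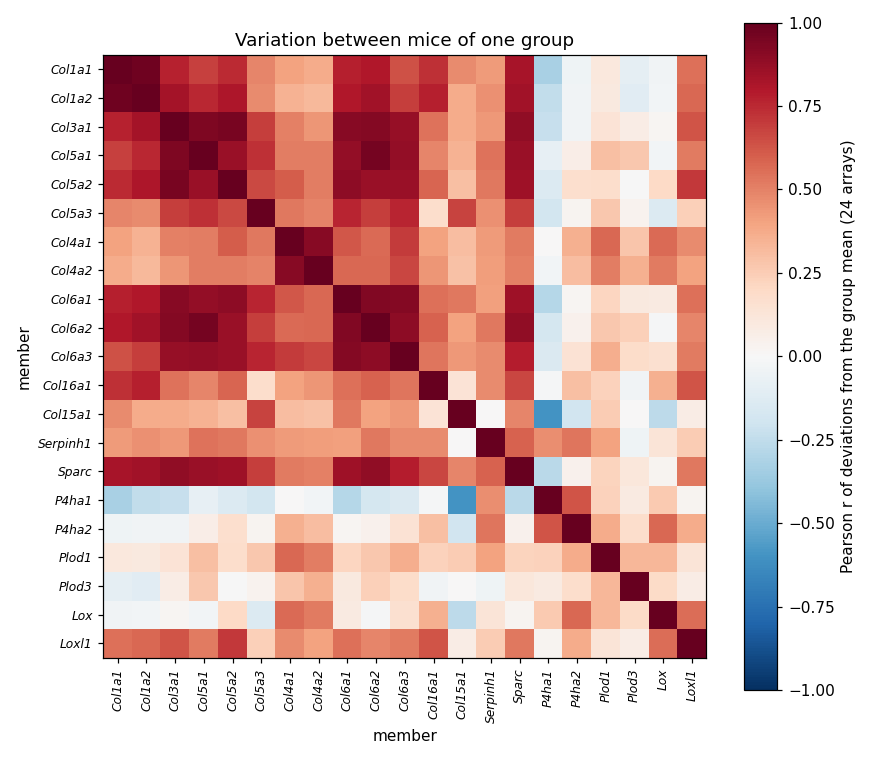
Pearson r between the deviations of 21 members from their group means over 24 arrays, with members in order of class. The fibrillar and type VI chains form a block of high r with a median of 0.818, while pairs of a chain and an enzyme have a median of 0.103.

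The other genes of collagen biosynthesis were a list of 28, of which 14 were tested, with a median of 0.21 at day 3. Of these none was called lower at day 3, against 6.87% of all tested genes, and 5 were called higher, against 7.99%. They were P4hb, the partner subunit of prolyl 4-hydroxylase (0.24, limma adjusted p = 0.0194), Crtap and Ppib of the prolyl 3-hydroxylation complex (0.59, 0.00515, and 0.42, 0.00495), Pcolce, which enhances procollagen C-proteinase (0.52, 0.00155), and the collagen-folding isomerase Fkbp14 (0.69, 0.0485). Crtap ran from 5.59 to 5.93 on low fat and from 6.17 to 6.66 on high fat, without overlap. At day 28 Pcolce (-0.34, 0.0319) and its relative Pcolce2 (-0.64, 0.0212) were called lower and none higher, against 7.18% and 5.35% of all genes. The diet effect fell between the days for Pcolce (-0.86, limma adjusted p = 0.00873) and Crtap (-0.80, 0.0376). Over all tested genes 0.708% were called lower for that difference. On high fat Pcolce was lower at day 28 than at day 3 by -0.69 (limma adjusted p = 0.00243), with no overlap between the days.

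Of 10 tested genes of collagen breakdown and uptake, 2 were called lower at day 3, the lysosomal protease Ctsl (-0.33, limma adjusted p = 0.00370) and Pepd, which frees proline from collagen peptides (-0.32, 0.0222). At day 28 Ctsl (-0.27, 0.0164), Pepd (-0.55, 0.000300) and the stromal protease Fap (-0.68, 0.00238) were called lower, and none higher on either day. Over all tested genes 6.87% were called lower at day 3 and 7.18% at day 28. Of 16 tested genes of TGF-beta and matrix signalling, Ltbp4, a latent TGF-beta binding protein, was called higher at both days (0.54, limma adjusted p = 0.0259, and 0.58, 0.0162). Smad3, a signal transducer of TGF-beta, was called lower at day 3 (-0.49, 0.0334) and Tgfbi, a matrix protein, at day 28 (-0.46, 0.0249). That is 1 higher and 1 lower of 16 on each day. The shares of all tested genes called higher and lower were 7.99% and 6.87% at day 3, and 5.35% and 7.18% at day 28. Neither of the 2 tested collagen receptors was called on either day.

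Markers of other cells moved with diet beside these genes. Over all tested genes 7.99% were called higher and 6.87% lower at day 3, and 5.35% and 7.18% at day 28. Of 15 fibroblast and tendon markers, all tested, 7 were called higher and 1 lower at day 3 (median 0.34) and 3 higher and 3 lower at day 28 (median 0.0031). Higher at day 3 were Tnmd (1.12), Scx (1.10), Comp (0.82), Fmod (0.73), Thbs4 (0.72), Bgn (0.42) and Pdgfrb (0.34), and Gsn (-0.21) was lower. Dcn, Lum, Pdgfra, Dpt, Fn1, Mfap5 and Thy1 were not called at day 3, with differences from -0.16 to 0.41. The summed linear intensity of the 15 ran from 10181 to 13260 on low fat and 10630 to 11808 on high fat at day 3, and from 10338 to 12270 and 10039 to 10925 at day 28. Most of these sums came from Gsn and Dcn. All 8 slow muscle fibre markers were called higher on both days, with sums of 189 to 1786 against 3407 to 21243 at day 3 and 211 to 2087 against 4461 to 8191 at day 28. Of 7 tested endothelial markers 5 were called higher at day 3 (median 0.42). None was called at day 28, where the median was 0.34 and the differences ran from 0.186 to 0.455. None of the 7 was called for the difference between the days. Of 5 tested smooth muscle and pericyte markers 2 were called higher at day 3 (median 0.41) and 1 at day 28 (0.36), with sums of 3055 to 3418 on low fat and 3102 to 3852 on high fat at day 3 and of 3124 to 3612 and 3632 to 4270 at day 28. These sums and those below cover every marker of the list on the array, tested or not: 7 here, 7 for adipocytes and 8 for macrophages. Most of each smooth muscle and pericyte sum came from Des, 1 of the 5 tested, which is also on the muscle fibre list. Its geometric means on low and high fat were 2631 and 2642 at day 3, and 2732 and 2959 at day 28. Of 6 tested adipocyte markers 3 were called lower at day 3 and 6 at day 28, when their sums were 7221 to 13724 on low fat and 2768 to 4224 on high fat. Of 7 tested macrophage markers 1 was called lower at day 3 and 7 at day 28, with sums of 692 to 1668 and 349 to 693. The part of these cells in the results above was not tested.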

How the data were processed

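RNA of 24 quadriceps muscles was read on Affymetrix mouse genome arrays, and the authors deposited linear intensities, 1 for each probe set in each muscle. Per the submitters' processing notes these intensities come from GCRMA, which corrects background by probe sequence, brings arrays to one distribution and summarises probes; dim values and the spread between arrays depend on it. The sources used here name neither its version nor a genome build.

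The log2 of each deposited intensity was taken with no offset. Of 16361 probe sets 64 were controls, 14771 had 1 symbol in the platform annotation, 589 several and 937 were not listed; the probe set of highest mean was kept per gene (14754 genes). Genes above a log2 value of 4 on 6 or more arrays (5793) were fitted with limma 3.58.1 (R 4.3.3; lmFit, eBayes, 4 group means, 20 residual degrees of freedom). Tests were two-sided, adjusted by the Benjamini-Hochberg method over these genes, and called at an adjusted p under 0.05. No column of the table was without a sample (0). Values simulated for the day 3 comparison over 5793 genes gave 67 of 100 genes changed by 0.5 and 94 of 100 changed by 1 recovered, with 4 unchanged genes called.

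Correlations used 100000 within-group permutations (Python 3.11.15, numpy 2.4.6, scipy 1.17.1). The number of arrays limits the precision. Nothing in the labels pairs mice, and same-numbered arrays correlated at -0.38 to 0.54 in their deviations, so replicate numbers were not taken as pairs. Named with full statistics were members called in any comparison, Col1a1, Col1a2, Col3a1, Sparc and Serpinh1; of other lists, genes called by diet. Col11a1, Col11a2, Col8a1 and Col8a2 were named after their values had been seen. Members and lists were chosen with earlier results of these data known. Alternatives were quantile normalization, centring, an offset of 16, no filter, a filter at 6, only the arrays compared, array weights, an intensity trend, the replicate block and each array left out.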

Additional observations from a re-analysis of the deposited data

Results flagged for a closer look

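In 84 sets of 6 values (21 members in 4 groups), 8 had a highest or lowest mouse far from the others, with a gap to the next mouse beyond Dixon's critical share of the range. Chance alone gives about 1 in 20. In the low fat day 28 group replicate 6 was that mouse 5 times, as the lowest log2 level of Col5a1 (6.21), Col5a3 (4.71), Col6a1 (7.84), Col6a2 (5.95) and Col6a3 (7.92). Low fat day 3 replicate 5 had the highest Plod3 (5.86), low fat day 3 replicate 3 the highest Col15a1 (4.99), and high fat day 28 replicate 2 the lowest Col6a3 of its group (7.51).

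For Serpinh1 and Sparc the effect of diet differed between the days by limma's interaction test, with changes of -0.80 and -0.81 (log2; adjusted p = 0.0411 each). Serpinh1 had a mean difference of 0.37 at day 3 and -0.43 at day 28, and Sparc of 0.57 and -0.24.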

How the results depend on the processing

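Of 436 refits of the named members under the other settings and without low fat day 3 replicate 1, 398 kept direction and call, 22 lost the call, 16 gained it and 0 reversed. Most of these refits are of comparisons not called in the main fit, which could only stay uncalled or gain a call. All 22 losses therefore fell among refits of the 11 calls. When each of the 24 arrays was left out in turn, the 11 calls gave 264 refits, of which 77 lost the call. Without the filter 7 members were called at day 3, and 0 for the difference between days (6 of all 14754 genes called). Quantile normalization gave 1 for that difference. Day 28 against day 3 on low fat gave 0 with centring, without the filter, with only the arrays compared, and with the replicate block. On high fat it gave 1 with an offset of 16, with the stricter filter, with the intensity trend and with the replicate block, 5 with only the arrays compared and 6 with array weights. The replicate block called 4, 3 and 2 members at day 3, at day 28 and for the difference, and ended no call among these but that of Serpinh1 at day 28. Leaving out each array gave 1 to 8 members at day 3, 2 to 6 at day 28, 0 to 3 for the difference, and 0 to 1 and 0 to 2 between days on low and high fat. Over all tested genes those fits called 350 to 473 higher and 311 to 410 lower at day 3. At day 28 they called 242 to 360 higher and 333 to 446 lower, and for the difference 7 to 58 and 11 to 68. Between days they called 0 to 32 higher and 0 to 27 lower on low fat, and 0 to 29 and 2 to 21 on high fat. By limma, centring ended the calls of Col6a2 at day 3 (adjusted p = 0.0519) and Serpinh1 at day 28 (0.0564), and fitting without the filter those of Col6a2 (0.0690) and Serpinh1 (0.0707). Fitting only the arrays compared ended those of P4ha2 (0.0819) and Serpinh1 (0.0965) at day 28, beside the 3 at day 3 given above. Differences between chains kept their direction with quantile normalization, with the offset of 16 and without each array, alternatives chosen after seeing the data, such as Col1a1 minus Col3a1 at day 3 (0.90 to 1.34 without each array). No array met the rule for a high beta-actin ratio, so that alternative was not run. The tests cannot separate diet from any sets of animals that the ranges of mouse numbers mark. Intensities of 30 dim members lie where the background correction decides the value.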
